A study of Mus musculus with 8 samples.

Results

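Amino acid starvation and unfolded protein in the endoplasmic reticulum are met by overlapping gene programmes, and 37 genes of these programmes were followed in satellite cells, the stem cells of skeletal muscle, with and without added Hoxa9. The genes were taken by name from the non-control probes of the arrays, and all 37 were found there among 34947 names. They fall into 17 genes of the amino acid response driven by the transcription factor Atf4 and 20 genes of the endoplasmic reticulum, mostly chaperones, folding enzymes and the sensors of unfolded protein. The rule that takes them uses function and no measured value, although it was set with earlier results of these data known.

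The donors were C57BL/6J mice at an age of 3 to 4 months, and their hindlimb satellite cells were sorted, kept in growth medium overnight, and given a lentivirus that integrates into the genome. The control group carried eGFP alone and the other group Hoxa9-eGFP, so that integrated virus and eGFP are common to both groups. Cells positive for eGFP were sorted 5 days after transduction, and there were 4 Agilent arrays of 1 colour per group, with experiment numbers from 1 to 4. The promoter that drives the transgene and the number of animals behind a sample are not given in the sources used here, so the p-values here reflect only how far these samples varied, which may be technical. In such bulk RNA, fewer cells of a type and less RNA per cell cannot be told apart.

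When amino acids run short, uncharged transfer RNA activates the kinase Gcn2, and when unfolded protein builds up in the endoplasmic reticulum, the kinase Perk is activated. Both phosphorylate the initiation factor eIF2, which lowers protein synthesis in general but favours translation of Atf4, and Atf4 then switches on genes for amino acid synthesis and uptake. The other arms of the unfolded protein response run through Ire1, which splices Xbp1 mRNA, and through Atf6, which is cleaved to an active factor. Both raise the chaperones of the endoplasmic reticulum. In satellite cells, phosphorylation of eIF2 is known to take part in keeping the cells quiescent. The arrays measure transcript levels, so translation of Atf4, splicing of Xbp1 and cleavage of Atf6 were not measured.

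All values are log2 signals relative to the 75th percentile of their array, and a difference is Hoxa9 minus eGFP. A gene is called higher or lower when its adjusted p was under 0.05 (limma, Benjamini-Hochberg over all 27109 genes tested). Between 69.6% and 77.5% of non-control spots were well above background on each array, and no spot was saturated. The number of arrays limits the precision. The brighter Hoxa9 probe read from -0.98 to -0.04 in the eGFP arrays and from 5.31 to 5.81 in the Hoxa9 arrays, while the other Hoxa9 probe read from -1.95 to -1.5 and from -3.52 to -3.34. Of the 10 satellite cell and myoblast markers, all were kept after the filter on dim probes, and the log2 of their summed signal was 8.44 to 8.76 in the eGFP arrays and 8.08 to 8.30 in the Hoxa9 arrays. Of these 10 markers 6 were called lower and 1 higher, against 7.42% and 7.83% of all genes.

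The 2 classes of members differed in what the test called. Of the 17 Atf4-type genes 8 were called lower in the Hoxa9 arrays (47.1%) and 1 higher (5.88%), with a median difference of -0.67. Of the 20 endoplasmic reticulum genes none was called lower and 2 were called higher, with a median difference of 0.03. Over all 27109 genes 7.42% were called lower and 7.83% higher, and the median difference was -0.07. The share of higher calls in both classes lay near that background. At an unadjusted p under 0.05, 10 Atf4-type genes were lower and 1 higher, and 2 endoplasmic reticulum genes were lower and 3 higher, while over all genes 14.2% were lower and 13.3% higher.

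The arrays of the 2 groups did not overlap in 9 Atf4-type genes that were lower and 1 that was higher. For the endoplasmic reticulum genes this held for 2 in each direction, Dnajc3 and Manf on the lower side, and Eif2ak3 and Dnajb9 on the higher side. Over all genes, 12.5% had groups that did not overlap with the Hoxa9 arrays lower, and 11.1% with the Hoxa9 arrays higher. All 37 members passed the filter on dim probes, and their representative probes were well above background on all 8 arrays, so that no member was lost or bounded by detection.

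**Figure D1:**
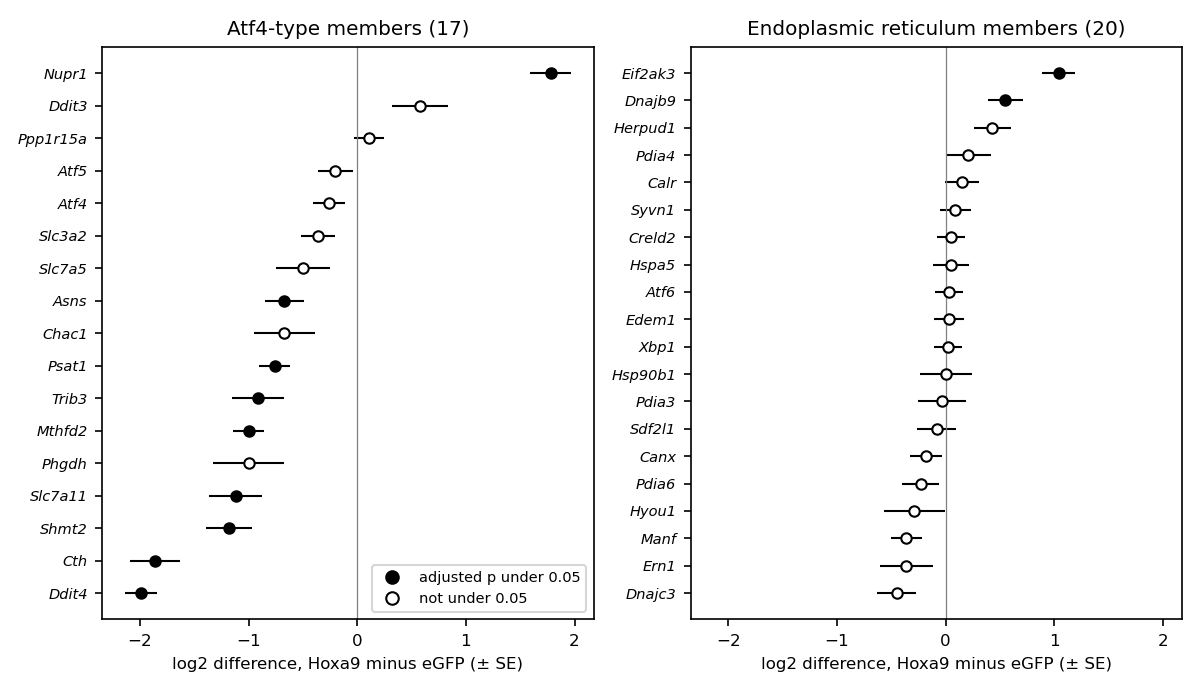
Log2 difference (Hoxa9 minus eGFP, x axis) with its standard error for each of the 17 Atf4-type members (left) and 20 endoplasmic reticulum members (right), n = 4 arrays per group; filled points have an adjusted p under 0.05 in limma. On the left 8 filled points lie below 0 and 1, Nupr1, above; on the right the only filled points are Eif2ak3 and Dnajb9, both above 0.

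The class medians were also taken array by array, as the deviation of each member from its own eGFP mean. For the Atf4-type genes the median deviation was 0.17, 0.01, -0.16 and -0.08 in eGFP arrays 1 to 4, and -0.61, -0.72, -0.70 and -0.57 in Hoxa9 arrays 1 to 4. No array of one group reached the range of the other. For the endoplasmic reticulum genes the median deviation was -0.09, -0.06, 0.15 and 0.00 in the eGFP arrays and -0.13, -0.04, 0.10 and 0.04 in the Hoxa9 arrays, and the groups overlapped. The 8 arrays lay on 3 slides, each with both groups. Slide 1 held eGFP arrays 1 and 2 with Hoxa9 array 4, and slide 2 held eGFP array 3 with Hoxa9 arrays 1 and 2. Slide 3 held eGFP array 4 with Hoxa9 array 3. No slide held both groups of the same experiment number, so a difference within a slide also includes any difference between experiments. Within slides 1, 2 and 3 the Atf4-type median difference was -0.90, -0.36 and -0.51.

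Of the 5 regulators of the amino acid response, 1 was called higher and 1 lower. Atf4 itself, the factor that binds the promoters of the pathway, read 8.00, 7.89, 8.15 and 7.91 in the eGFP arrays and 7.58, 8.00, 7.58 and 7.72 in the Hoxa9 arrays. The groups overlapped, and its difference of -0.26 did not pass the test (SE 0.15, limma adjusted p = 0.3007). A less bright Atf4 probe gave -0.50 (adjusted p = 0.1759 over all probes). Its relative Atf5, which is likewise controlled by translation, differed by -0.20 (adjusted p = 0.474).

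Ddit3, which encodes the stress factor Chop, read 0.60, 0.34, -0.26 and -0.25 in the eGFP arrays and 1.04, 0.86, 0.55 and 0.31 in the Hoxa9 arrays. The Hoxa9 array lay above the eGFP array of the same experiment number in 4 of 4 pairs, by 0.44, 0.52, 0.81 and 0.56, although the groups overlapped. The difference of 0.58 did not pass the test (SE 0.26, limma adjusted p = 0.1845), but with the experiment number as a block it did (adjusted p = 0.04192). Within the slides the difference was -0.16, 1.21 and 0.79.

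Trib3, a pseudokinase induced by Atf4 and Chop that feeds back on them, was called lower. It read 4.44, 4.05, 4.02 and 4.17 in the eGFP arrays and 3.57, 3.75, 3.01 and 2.74 in the Hoxa9 arrays, through a probe at chromosome 2, 152163161 to 152163220 (mm9, minus strand). Every Hoxa9 array was lower than every eGFP array, a 1.87-fold lower signal (difference -0.91, SE 0.24, limma adjusted p = 0.03999). The call was lost when any of 7 arrays was left out, with an adjusted p of 0.05339 to 0.1027, and held only without Hoxa9 replicate 2 (0.01909). It was also lost with the slide as a block (-1.0, adjusted p = 0.05999).

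Nupr1, a small chromatin-associated protein induced by many stresses, was the Atf4-type gene called higher. It read 4.34, 4.62, 3.85 and 4.07 in the eGFP arrays and 5.98, 6.08, 5.87 and 6.06 in the Hoxa9 arrays (probe at chromosome 7, 133766978 to 133767037, mm9, minus strand). The Hoxa9 arrays lay close together, with an SD of 0.094 (n = 4), and well above the eGFP arrays. The signal was 3.43-fold higher (difference 1.78, SE 0.19, limma adjusted p = 0.000549), and the difference within slides was 1.58, 2.18 and 1.80.

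**Figure D2:**
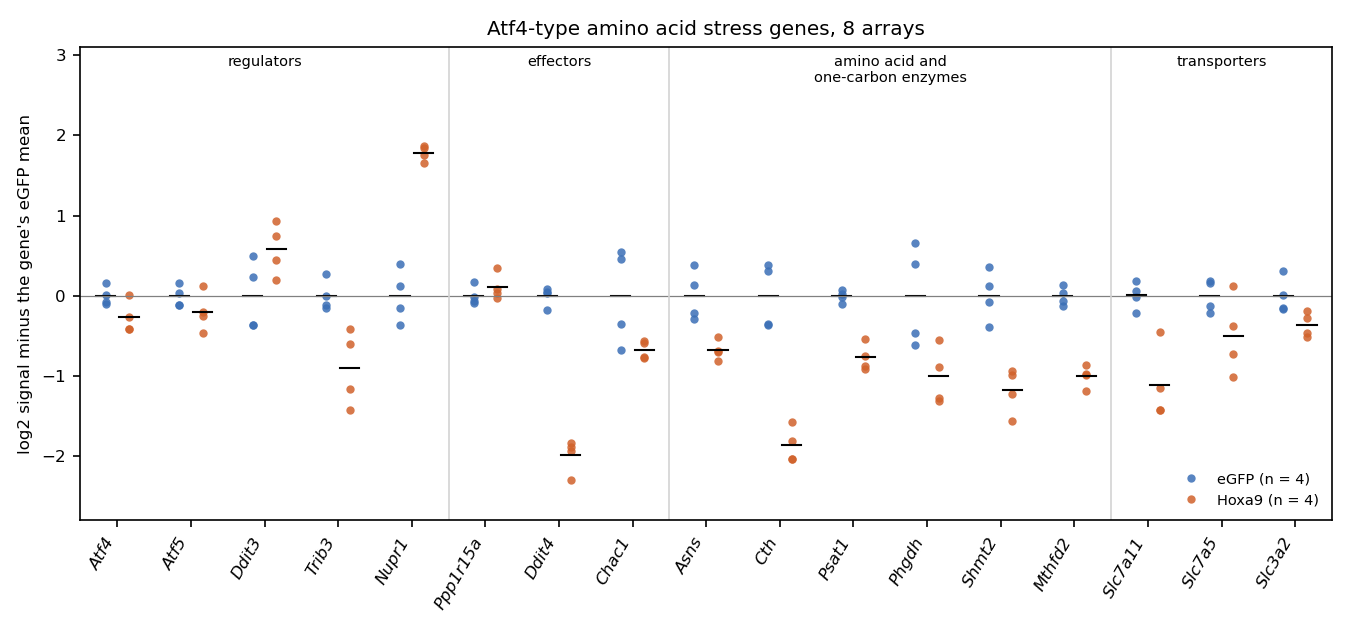
Signal of the 17 Atf4-type members on each of the 8 arrays (log2, minus the gene's mean over the eGFP arrays), grouped by role along the x axis; points are arrays (4 eGFP, 4 Hoxa9) and black lines are group means. The Hoxa9 points of Ddit4, Cth and the one-carbon enzymes lie below all eGFP points, those of Nupr1 above, and those of Ppp1r15a overlap the eGFP points.

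Of the effectors, Ddit4 had the largest fall among the 37 members. Ddit4 encodes Redd1, an inhibitor of the growth kinase complex mTORC1 that is induced by Atf4, by low oxygen and by glucocorticoids. It read 5.20, 4.98, 5.24 and 5.21 in the eGFP arrays and 3.23, 3.33, 2.86 and 3.28 in the Hoxa9 arrays (probe at chromosome 10, 59412486 to 59412545, mm9, minus strand). The groups were far apart relative to their spread, a 3.96-fold lower signal (difference -1.99, SE 0.15, limma adjusted p = 0.000138), with -1.82, -1.96 and -2.36 within slides.

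The other effectors were not called. Chac1, an enzyme that degrades glutathione, read 4.66 and 4.57 in eGFP arrays 1 and 2 but 3.44 and 3.76 in eGFP arrays 3 and 4, and from 3.34 to 3.54 in the Hoxa9 arrays. The groups overlapped through eGFP array 3, and the difference of -0.67 (SE 0.28) did not pass the test (limma adjusted p = 0.1681). Ppp1r15a, or Gadd34, which brings a phosphatase to eIF2 and ends the response, differed by 0.11 (adjusted p = 0.6406).

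Of the 6 enzymes of amino acid and folate metabolism, 5 were called lower. Cth, cystathionine gamma-lyase, makes cysteine in the last step of the route from methionine. It read 1.02, 0.95, 0.28 and 0.29 in the eGFP arrays and -1.17, -0.93, -1.39 and -1.40 in the Hoxa9 arrays (probe at chromosome 3, 157557667 to 157557726, mm9, minus strand). The lowest eGFP array stood more than a log2 unit above the highest Hoxa9 array, and the signal was 3.63-fold lower (difference -1.86, SE 0.23, limma adjusted p = 0.001123). A second Cth probe gave -1.64 (adjusted p = 0.003536 over all probes).

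Serine is made from a glycolytic intermediate by Phgdh, Psat1 and Psph, and mitochondrial Shmt2 and Mthfd2 then pass its carbon to folate. Shmt2 read 4.21, 3.97, 3.46 and 3.77 in the eGFP arrays and 2.62, 2.86, 2.91 and 2.29 in the Hoxa9 arrays, a 2.27-fold lower signal (difference -1.18, SE 0.21, limma adjusted p = 0.007072; chromosome 10, 126954811 to 126954870, mm9, minus strand). Mthfd2 read 3.11, 3.01, 2.84 and 2.91 against 1.78, 1.98, 2.0 and 2.11, a 2.0-fold lower signal (difference -1.0, SE 0.14, limma adjusted p = 0.00186; chromosome 6, 83256518 to 83256577, mm9, minus strand). In both genes all Hoxa9 arrays lay below all eGFP arrays, and Mthfd2 differed by nearly the same amount in each slide, by -0.95, -0.96 and -0.91.

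Psat1, which carries out the transamination step of serine synthesis, read 5.52, 5.44, 5.47 and 5.35 in the eGFP arrays and 4.54, 4.91, 4.70 and 4.58 in the Hoxa9 arrays (probe at chromosome 19, 15979622 to 15979681, mm9, minus strand). The groups did not overlap, and the signal was 1.70-fold lower (difference -0.76, SE 0.14, limma adjusted p = 0.00675), with -0.81 from a second probe. Phgdh, the first enzyme of the route, was not called. It read 6.61, 6.35, 5.49 and 5.34 in the eGFP arrays and 5.40, 5.06, 4.68 and 4.64 in the Hoxa9 arrays. In both groups arrays 1 and 2 were higher than arrays 3 and 4, and the groups overlapped. The difference was -1.0 (SE 0.33, limma adjusted p = 0.07912), and it passed the test with the experiment number as a block (adjusted p = 0.01703), with normexp background correction (-0.83, adjusted p = 0.03745) and with an intensity trend and robust prior (adjusted p = 0.04727). Within the slides it was -1.84, -0.26 and -0.66.

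Asns, which makes asparagine from aspartate and glutamine, is a textbook target of Atf4. It read 6.73, 6.48, 6.13 and 6.06 in the eGFP arrays and 5.66, 5.54, 5.65 and 5.84 in the Hoxa9 arrays (probe at chromosome 6, 7625171 to 7625228, mm9, minus strand). The groups did not overlap, and the signal was 1.60-fold lower (difference -0.67, SE 0.18, limma adjusted p = 0.04108). The call lay close to the threshold. Without any of 7 arrays the adjusted p was 0.05356 to 0.1169, only without eGFP replicate 4 did it stay under 0.05 (0.03791), and it was 0.07722 with the experiment number as a block and 0.07085 with the slide as a block.

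Of the 3 transporter genes, Slc7a11 was called lower. Slc7a11 is the light chain of the cystine and glutamate exchanger, which pairs with the heavy chain Slc3a2. It read -3.69, -3.88, -4.08 and -3.81 in the eGFP arrays and -5.02, -5.30, -4.32 and -5.29 in the Hoxa9 arrays (probe at chromosome 3, 50169700 to 50169759, mm9, minus strand). All Hoxa9 arrays were lower, Hoxa9 replicate 3 by the least, and the signal was 2.17-fold lower (difference -1.12, SE 0.24, limma adjusted p = 0.01471). With normexp background correction the difference shrank to -0.29 and the call was lost (adjusted p = 0.1812).

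Slc3a2 read 4.87, 4.57, 4.40 and 4.41 in the eGFP arrays and 4.37, 4.28, 4.10 and 4.05 in the Hoxa9 arrays. The groups were just apart, by 4.40 against 4.37, but the difference of -0.36 did not pass the test (limma adjusted p = 0.1878). Slc7a5, the light chain that imports leucine and other large neutral amino acids, differed by -0.50 (adjusted p = 0.2477), with a difference in the same direction in 4 of 4 experiment pairs and 0.29, -1.02 and -0.56 within slides.

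For each of the 8 Atf4-type genes called lower and for Nupr1 the groups did not overlap. The same sign within all 3 slides and in 4 of 4 experiment pairs follows from that and adds nothing to it. Of the 19 alternative analyses, Ddit4, Cth, Psat1, Shmt2, Mthfd2 and Nupr1 kept their call in all 19, Slc7a11 in 18, Trib3 in 9 and Asns in 7. Of the 17 genes, 14 had a difference below 0 in the main analysis (82.4%), against 55.7% of all genes.

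Among the sensors of the endoplasmic reticulum, Eif2ak3 was called higher. Eif2ak3 encodes Perk, the sensor kinase that acts on eIF2. It read -0.31, -0.14, 0.09 and -0.16 in the eGFP arrays and 0.76, 1.15, 0.87 and 0.87 in the Hoxa9 arrays (probe at chromosome 6, 70855152 to 70855211, mm9, plus strand). Every Hoxa9 array lay above every eGFP array, a 2.06-fold higher signal (difference 1.04, SE 0.15, limma adjusted p = 0.002474), with 1.10, 0.87 and 1.03 within slides, and the call held in all 19 alternatives.

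The other sensors did not pass the test. Ern1, which encodes the kinase and nuclease Ire1, differed by -0.36 (SE 0.24, limma adjusted p = 0.3812), with -0.15 and -0.78 from further probes and one probe too dim to be kept. It read -0.25 and -0.20 in eGFP arrays 1 and 2 and 0.56 and 0.63 in eGFP arrays 3 and 4. Atf6 differed by 0.03 (SE 0.13) and Xbp1, the factor activated by Ire1, by 0.02 (SE 0.13), with adjusted p of 0.8892 and 0.9312 (limma).

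**Figure D3:**
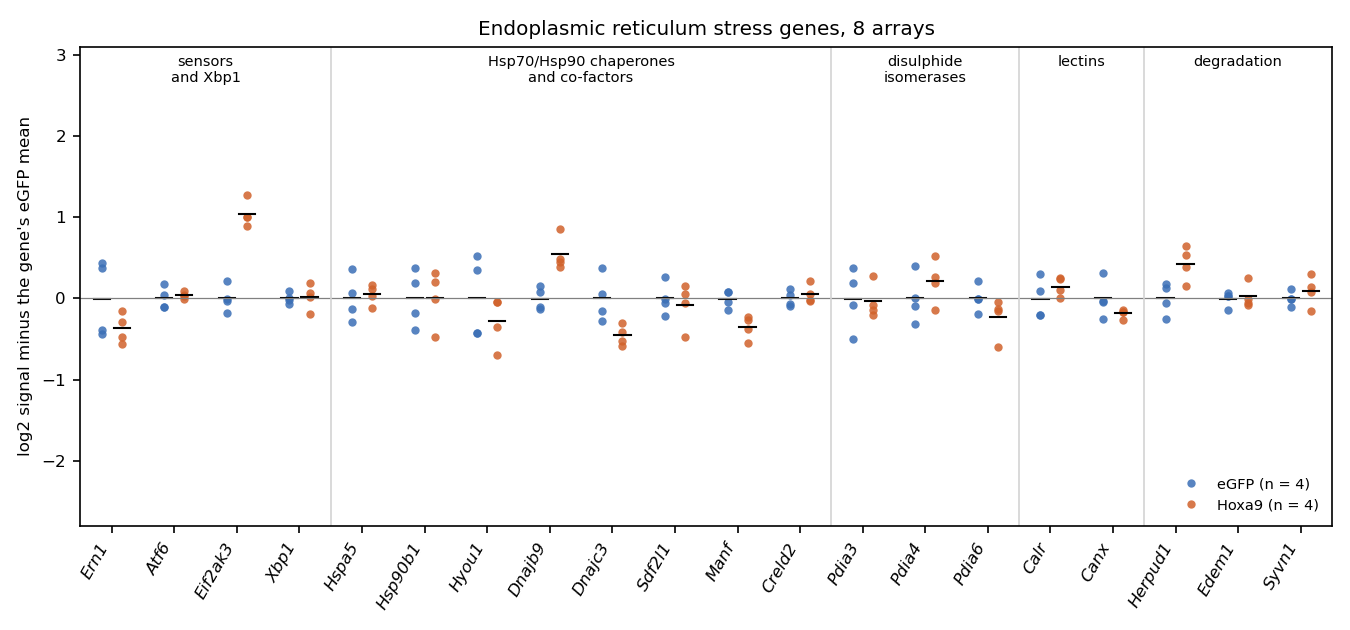
Signal of the 20 endoplasmic reticulum members on each of the 8 arrays (log2, minus the gene's mean over the eGFP arrays), by role along the x axis, on the same scale as for the Atf4-type members; points are arrays (4 eGFP, 4 Hoxa9) and black lines are group means. Eif2ak3 and Dnajb9 have all Hoxa9 points above the eGFP points, and most other genes have overlapping points near 0.

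Of the 8 Hsp70 and Hsp90 chaperones and their co-factors, 1 was called. Hspa5, or BiP, the Hsp70 of the endoplasmic reticulum and its most used stress marker, read 6.45, 6.29, 6.65 and 6.94 in the eGFP arrays and 6.46, 6.75, 6.70 and 6.61 in the Hoxa9 arrays. The groups overlapped almost wholly (difference 0.05, SE 0.17, limma adjusted p = 0.8685), and over the alternatives the difference ranged from -0.08 to 0.24. Hsp90b1, or Grp94, read 5.76, 5.55, 6.13 and 6.32 against 5.46, 5.93, 6.14 and 6.25, with a difference of 0.00 (SE 0.24, adjusted p = 0.9933).

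Dnajb9, a J-domain co-chaperone of BiP known as ERdj4, read 1.29, 1.22, 1.01 and 1.03 in the eGFP arrays and 2.0, 1.59, 1.53 and 1.63 in the Hoxa9 arrays (probe at chromosome 12, 45307313 to 45307372, mm9, minus strand). All Hoxa9 arrays were higher, by 1.47-fold (difference 0.55, SE 0.16, limma adjusted p = 0.04906). The call stood at the threshold and was lost without any 1 of the 8 arrays, with an adjusted p of 0.06128 to 0.1172, and with the slide as a block (0.56, adjusted p = 0.104). A dimmer Dnajb9 probe gave 0.49 (adjusted p = 0.3979 over all probes).

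Dnajc3, the co-chaperone p58IPK, read 1.84, 1.97, 2.50 and 2.17 in the eGFP arrays and 1.59, 1.54, 1.71 and 1.82 in the Hoxa9 arrays. The groups did not overlap, yet the difference of -0.45 did not pass the test (SE 0.18, limma adjusted p = 0.1318). Manf, a secreted stress-induced factor that binds BiP, likewise had groups apart, from 3.30 to 3.52 against 2.89 to 3.21, with a difference of -0.36 (adjusted p = 0.1284). These were the only endoplasmic reticulum members with an unadjusted p under 0.05 and a negative difference. Hyou1, the large Hsp70 relative Grp170, differed by -0.29 (adjusted p = 0.5293), Sdf2l1 by -0.08 (0.7907) and Creld2 by 0.05 (0.8135).

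The disulphide isomerases form and reshuffle the disulphide bonds of secreted proteins, and all 3 overlapped between the groups. Pdia3 differed by -0.03 (SE 0.22, limma adjusted p = 0.9426), Pdia4 by 0.21 (0.5395) and Pdia6 by -0.23 (0.4213), with -0.46 and -0.56 from further Pdia6 probes. The lectin chaperones, which hold glycoproteins until they are folded, were not called either, with 0.15 for Calr (adjusted p = 0.5729) and -0.18 for Canx (0.4714).

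Of the degradation genes, Herpud1, a membrane protein of the complex that removes misfolded protein, read 3.63, 3.44, 3.87 and 3.82 in the eGFP arrays and 3.84, 4.08, 4.34 and 4.22 in the Hoxa9 arrays. It was higher in 4 of 4 experiment pairs, but the groups overlapped and the difference of 0.43 did not pass the test (SE 0.17, limma adjusted p = 0.1341). Edem1, which directs glycoproteins to disposal, differed by 0.03 (adjusted p = 0.9013), and Syvn1, the ubiquitin ligase Hrd1, by 0.09 (0.7097).

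The standard errors of the 18 endoplasmic reticulum genes that were not called ran from 0.13 for Xbp1, Atf6 and Creld2 to 0.28 for Hyou1, and a p above the threshold does not show that a gene was the same in both groups. The median of the class changed sign with small changes of the analysis, from -0.02 to 0.14 over the 19 alternatives, whereas the Atf4-type median stayed between -0.79 and -0.55.

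The promoters of the members were searched for the letters of known binding motifs. Promoter sequences from RefSeq (build GRCm38.p6, 250 bases before to 50 after each start site) matched 32 of the 37 members, all but Cth, Slc7a5, Atf6, Hyou1 and Manf. The letters were searched on both strands. The CEBP-ATF response element, at which Atf4 pairs with a C/EBP factor, was searched as TGATGNAA. The ER stress response element, bound by Atf6 with NF-Y, was searched as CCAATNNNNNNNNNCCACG, a second form as ATTGGNCCACG, and the unfolded protein response element as TGACGTGG. No 2 matches in a member overlapped, and a match is a description of letters, not of binding.

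TGATGNAA stood in 5 of the 17 promoters of Atf4-type genes (29.4%), in Asns, Chac1, Nupr1, Slc7a11 and Trib3, against 3.97% of all 32851 promoters. Those 17 promoters belong to 15 genes, since Atf5 and Psat1 were each counted with an additional promoter. Among the 8 promoters of genes called lower, which belong to 7 genes, TGATGNAA stood in 3 (37.5%). It also stood in the promoters of Nupr1, which was higher, and of Chac1, which was not called. The stretches before the start site are shown for the 4 genes with such a match there, since genes with the same letters differed in direction. Capitals mark the match, which reads TTGCATCA where it lies on the opposite strand.
Asns (chr6:7693210-7693252, minus strand): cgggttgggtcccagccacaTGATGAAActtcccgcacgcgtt
Slc7a11 (chr3:50443633-50443699, minus strand): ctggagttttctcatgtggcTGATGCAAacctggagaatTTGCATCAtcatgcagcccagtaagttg
Chac1 (chr2:119351029-119351076, plus strand): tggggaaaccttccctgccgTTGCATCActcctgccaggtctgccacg
Nupr1 (chr7:126625553-126625600, minus strand): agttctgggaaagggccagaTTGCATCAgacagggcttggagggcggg
In Slc7a11 the letters occur on both strands, 66 and 47 bases before the start site, and in Asns 23 bases before it. The signal of Asns and Slc7a11 was 1.60-fold and 2.17-fold lower in the Hoxa9 arrays and that of Nupr1 3.43-fold higher.

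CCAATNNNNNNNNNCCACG stood in 8 of the 17 promoters of endoplasmic reticulum genes (47.1%), against 0.119% of all promoters, and in 0 of the 17 promoters of Atf4-type genes. The 8 genes were Calr, Canx, Creld2, Dnajc3, Hsp90b1 with 2 matches, Hspa5, Pdia6 and Syvn1, none of which was called in either direction. Most genes were not called, 18 of the 20 endoplasmic reticulum members and 22975 of all 27109 genes. ATTGGNCCACG stood in the Herpud1 promoter and in 0.0365% of all promoters, and TGACGTGG in none of the members' promoters and 0.676% of all. The 2 endoplasmic reticulum genes called higher, Eif2ak3 and Dnajb9, had no match to any of these letters in this window. A selection is printed to show the constant ends and the varying bases between them, with both matches of Herpud1.
Hspa5 (chr2:34772005-34772063, plus strand): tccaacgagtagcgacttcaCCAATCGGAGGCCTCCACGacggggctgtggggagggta
Dnajc3 (chr14:118937807-118937865, plus strand): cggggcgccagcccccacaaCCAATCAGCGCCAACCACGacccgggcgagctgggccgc
Pdia6 (chr12:17266471-17266529, plus strand): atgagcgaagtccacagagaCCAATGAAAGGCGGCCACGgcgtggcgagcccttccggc
Calr (chr8:84847055-84847113, minus strand): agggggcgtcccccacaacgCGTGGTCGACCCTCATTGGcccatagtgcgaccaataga
Syvn1 (chr19:6046512-6046570, plus strand): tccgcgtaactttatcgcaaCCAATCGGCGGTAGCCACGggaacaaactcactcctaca
Herpud1 (chr8:94386297-94386407, plus strand): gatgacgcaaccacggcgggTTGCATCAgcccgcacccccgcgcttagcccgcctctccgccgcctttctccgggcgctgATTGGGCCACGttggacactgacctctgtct
In Calr the match lies on the opposite strand, so that CCACG reads as CGTGG at its left end. Between the members shown, CCAAT and CCACG are the same by the search and the 9 bases between them differ. In the plot of matches by distance, the ER stress response elements lie from 212 to 26 bases before the start site.

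**Figure D4:**
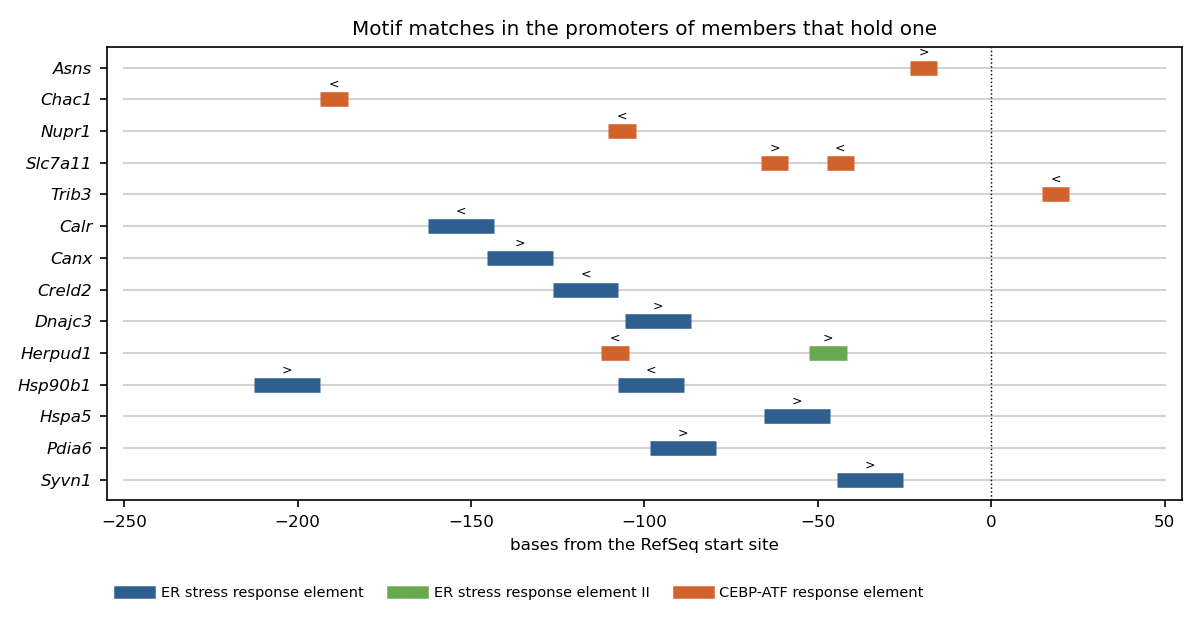
Position of motif matches in the promoters of the 14 members that hold one, in bases from the RefSeq start site (dotted line at 0), from 250 bases before to 50 after it; colours give the motif, and the arrowhead above each box its strand. The ER stress response element appears only in endoplasmic reticulum members and the CEBP-ATF response element in 5 Atf4-type members and Herpud1.

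Genes of the same pathways outside the 37 were taken as lists. Of 25 other Atf4 targets tested, 5 were called lower (20%) and 3 higher (12%), against 7.42% and 7.83% of all genes, with a median of -0.25. At an unadjusted p under 0.05, 8 were lower (32%) and 7 higher (28%), against 14.2% and 13.3% of all genes. The lower calls numbered 3 without eGFP replicate 2, 3 with the slide as a block and 9 with the experiment number as a block. Psph, the last enzyme of serine synthesis, fell by 1.31 (SE 0.19, limma adjusted p = 0.002222), and Gpt2, a mitochondrial alanine transaminase, fell by 1.10 (adjusted p = 0.004663). Gdf15, a secreted stress hormone, rose by 1.86 (adjusted p = 0.000484) and Stc2, a secreted glycoprotein, by 1.43 (adjusted p = 0.003253). The others called, named after their values were seen, were Vldlr at 1.45, and the amino acid transporters Slc7a3 at -1.62 and Slc1a5 at -1.27 with the folate enzyme Aldh1l2 at -1.46.

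Of 17 serine, glycine and folate cycle genes 4 were called lower (23.5%) and none higher, against 7.42% and 7.83% of all genes, with a median of -0.41. At an unadjusted p under 0.05 these counts were 7 and 1, or 41.2% and 5.88% against 14.2% and 13.3% of all genes. Without eGFP replicate 2 the lower calls numbered 2. Mthfd1l, which completes the mitochondrial folate route after Mthfd2, fell by 1.46 (SE 0.18, limma adjusted p = 0.001117). Shmt1 at -1.05 and Ahcy at -0.76, named after their values were seen, were also called. All 19 cytosolic aminoacyl-tRNA synthetases tested, the enzymes that load amino acids onto transfer RNA and many of which Atf4 induces, had a difference below 0, against 55.7% of all genes, with a median of -0.39. Only Lars was called (-0.51, adjusted p = 0.03436), in 7 of the 19 alternatives, while 8 were lower (42.1%, against 14.2% of all genes) and 0 higher at an unadjusted p under 0.05. Under the alternatives 17 to 19 of the synthetases lay below 0, but within the slides their signs were not uniform. In slides 1, 2 and 3 Lars differed by -0.72, -0.50 and -0.24, and Nars by -1.37, -0.11 and -0.14. Wars differed there by -0.62, 0.57 and 0.33, and Dars by 0.78, -0.89 and -0.87.

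Of 13 cystine and glutathione genes 3 were called higher (23.1%) and 2 lower (15.4%), against 7.83% and 7.42% of all genes. Slc3a1, a heavy chain for cystine uptake in kidney and gut, rose by 2.09 (SE 0.16, limma adjusted p = 0.00012), and Cdo1, which oxidises cysteine, rose by 2.08 (adjusted p = 0.0006486). Gss, glutathione synthetase, was higher by 1.56. Nqo1, a target of the oxidative stress factor Nrf2, fell by 1.23 (adjusted p = 0.01172), and Gclc, the first enzyme of glutathione synthesis, fell by 0.46 (adjusted p = 0.0456), though in 6 of the 19 alternatives only.

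In the lists that adjoin the endoplasmic reticulum genes, calls were at or below the share over all genes, 7.83% higher and 7.42% lower. Of 37 other folding and degradation genes 1 was called higher and 0 lower, with 8 and 4 at an unadjusted p under 0.05 (21.6% and 10.8%, against 13.3% and 14.2% of all genes), and the median was 0.10. The called gene was Os9, a lectin of the degradation route (0.49, limma adjusted p = 0.04108), in 7 of the 19 alternatives. Of 27 translocon, signal peptidase and oligosaccharyltransferase genes 1 was higher (3.7%) and 2 lower (7.41%), the latter near the share over all genes. At an unadjusted p under 0.05, 2 were higher (7.41%) and 4 lower (14.8%). Sec11c, a signal peptidase subunit, rose by 1.0 (adjusted p = 0.003205), and the translocon-associated Ssr3 and Ssr1 fell by 0.68 (0.01372) and 0.55 (0.02322). Ssr3 kept its call in 16 of the 19 alternatives and Ssr1 in 8, and with averaged probes or a median shift the list held 0 lower calls. Of 13 eIF2 kinases and factors, a list without the member Eif2ak3, none was called in either direction. At an unadjusted p under 0.05 there was 1 in each (7.69%), against 13.3% higher and 14.2% lower over all genes.

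Of 17 cytosolic heat shock genes 2 were called higher (11.8%) and 3 lower (17.6%), against 7.83% and 7.42% of all genes. The co-chaperone Bag3 rose by 0.79 (SE 0.15, limma adjusted p = 0.009915) and Hspa1a by 0.67 (adjusted p = 0.03712, in 7 of the 19 alternatives), a gene whose near-identical copy Hspa1b its probe may not tell apart. Hsf2 fell by 0.78 (adjusted p = 0.004468), Hspa4 fell by 0.75 (0.01165) and Hsp90aa1, named after its values were seen, fell by 0.55 (in 11 of the 19 alternatives). Of 12 mitochondrial chaperones and proteases 1 was lower, the chaperonin Hspd1 (-0.79, adjusted p = 0.01323), and 0 higher, with 5 (41.7%, against 14.2% of all genes) and 0 at an unadjusted p under 0.05.

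**Figure D5:**
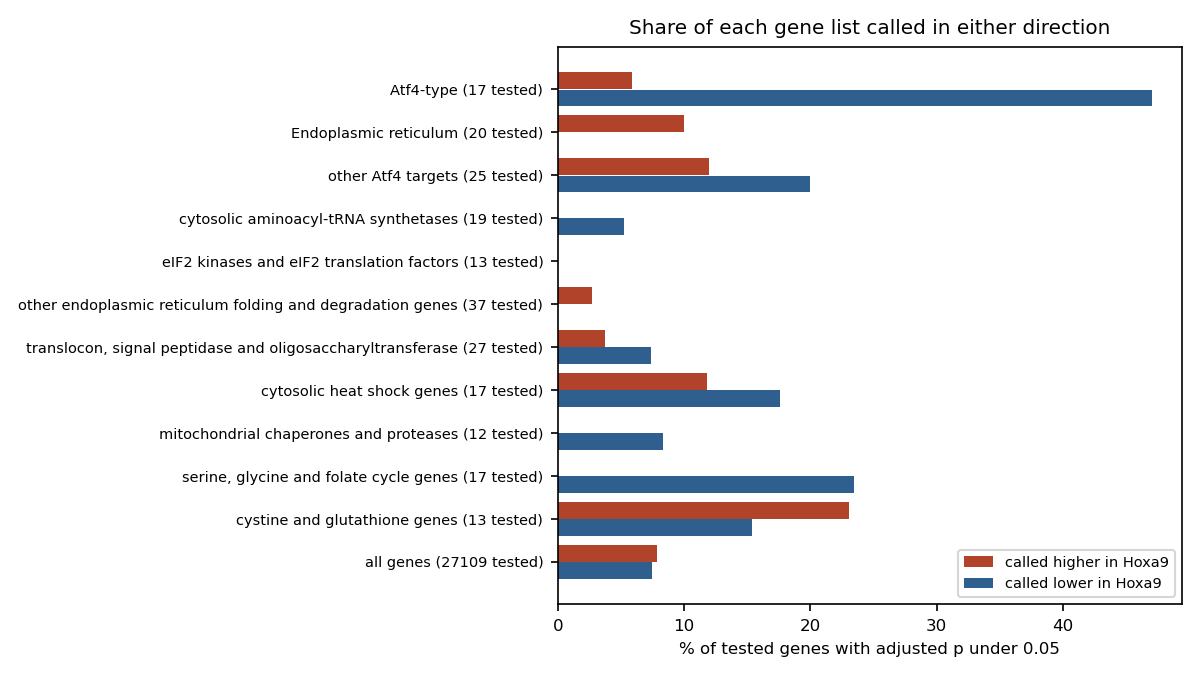
Percent of tested genes called higher (red) or lower (blue) in the Hoxa9 arrays at an adjusted p under 0.05 (limma, n = 4 per group), for the 2 classes of members, the 9 lists of related genes and all 27109 genes. The Atf4-type class has 47.1% lower, the endoplasmic reticulum class none lower, and all genes 7.42% lower and 7.83% higher.

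Markers of cell types moved with the comparison as well, and their part in the differences above was not tested. Of the satellite cell and myoblast markers Pax7 differed by -1.30 and Vcam1 by -2.59 (limma adjusted p = 0.004007 and 0.0001102), Megf10 was the 1 marker called higher (1.27, adjusted p = 0.007685), and Myod1 did not pass the test (-0.23). Of 10 differentiated muscle markers none was called, and their summed level was 9.15 to 10.38 in the eGFP arrays and 9.47 to 10.47 in the Hoxa9 arrays. The fibroblast list had 1 of 7 kept genes higher, Ly6a at 4.55, with a summed level of 3.90 to 4.57 against 4.46 to 5.75 and Tcf21 not kept. Its other genes were not called and went both ways. Thy1 differed by 1.62, Col1a1 by 0.97 and Dcn by 0.13, but Col3a1 by -0.46, Pdgfra by -0.63 and Lum by -2.6. All Hoxa9 arrays of Col3a1 lay below its eGFP arrays. The smooth muscle list had 1 of 6 higher and 1 lower, with 6.43 to 7.16 against 5.19 to 6.40.

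The adipocyte list had Fabp4 higher by 3.50 and Adipoq not, with a summed level of -4.06 to -2.13 against -0.35 to 0.51, and Plin1 and Cfd not kept. The endothelial list read 3.15 to 3.86 against 3.52 to 4.13 with Tek, Tie1 and Emcn not kept, the immune list 5.10 to 5.78 against 5.13 to 5.60 with Ptprc not kept, and the Schwann list 0.27 to 0.58 against 0.02 to 0.32 with S100b and Cdh19 not kept. No endothelial, immune or Schwann gene was called.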

How the data were processed

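Each array's intensity values were used as the scanner wrote them, made by the authors with Agilent Feature Extraction 10.7.3.1 (per the file headers, and the version also per the submitters' processing notes), with background subtracted and no scaling between arrays. Probe positions are of mm9 per the file headers, and no mm9 annotation was at hand. The authors' deposited series table, treated as a score, had no decimal point in 86.1% to 87.3% of cells, which was put back after the first digit, and served only as an alternative.

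Control and outlier spots were left out, which removed 180 of 55681 probes. Signals were taken to log2 and averaged per probe, and each array's 75th percentile over these probes was subtracted. Over all non-control spots, outlier spots included, the 75th percentile was 514.3 to 778.7 signal units. Probes had to be well above background on at least 4 arrays, and a gene's value is that of its kept probe with the highest mean. Of the members' 49 probes 47 were kept, and 8 members had several, which shared a sign. Names were updated through RefSeq accessions (27656 probes matched, 1711 renamed). The groups were compared in R 4.3.3 by limma 3.58.1 (lmFit, then eBayes, a two-sided test, Benjamini-Hochberg adjustment over every gene tested, threshold 0.05), with group as the only term, which was tested on simulated data.

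The named genes are all 37 members, Hoxa9, and from each list the 2 of lowest adjusted p called in each direction, with further names marked as such. Of the genes this rule takes, 1 is not reported here but is part of the counts. The members and lists were chosen with earlier results of these data known. A marker list's summed level is the log2 of its kept genes' summed signals. Same-numbered arrays of the 2 groups deviated together from their group means (correlations 0.143, 0.228, 0.129 and 0.186, each above the limit of 0.1), so the experiment numbers of the titles were taken to pair the samples. The main fit had no term for this pairing, which entered the tests only as the block for experiment, an alternative. Of the unlike pairs, eGFP 4 with Hoxa9 3 (0.188) and eGFP 3 with Hoxa9 4 (0.137) also exceeded it. The 19 alternatives were a median shift, quantile normalization, normexp correction with an offset of 50, 2 other filters on dim probes, the series table, averaging a gene's probes, blocks for slide and for experiment, a trended robust prior, array weights, and leaving out each of 8 arrays. Protein sequences were not used here.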

Additional observations from a re-analysis of the deposited data

Results flagged for a closer look

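Of 74 sets of 4 arrays (each member in each group), 1 held an array set apart by Dixon's test, and chance gives about 1 in 20 such sets. Ddit4 in eGFP replicate 2 read 4.98, while the other 3 eGFP arrays read from 5.20 to 5.24, a gap of 0.851 of the group's range. The fall of Ddit4 kept its call without each array in turn, with an adjusted p of 0.0003905 to 0.0009815 (limma).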

How the results depend on the processing

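Over the 19 alternatives the 37 members gave 663 results on the same side of the threshold and in the same direction, 36 that lost a call, 4 that gained one and 0 that turned; the lost calls belonged to 4 of the 11 called members (Trib3, Asns, Dnajb9 and Slc7a11), and the gained ones to Phgdh and Ddit3. With the replicate block, 2 Atf4-type genes were called higher and 8 lower, and beside Ddit3, Phgdh and Asns no member's call changed. The endoplasmic reticulum genes called higher numbered 1 with the slide as a block, a median shift, averaged probes, the authors' table or no filter on dim probes, and 1 to 1 without each array. Without each array in turn, 6 to 7 Atf4-type genes were lower and 1 to 1 higher, and 0 to 0 endoplasmic reticulum genes were lower. Over all genes, 1289 to 1893 were then lower, 1289 without eGFP replicate 2, and 1582 to 1902 higher. The Atf4-type median was -0.79 to -0.55 without each array, and -0.90, -0.36 and -0.51 within slides 1, 2 and 3. The endoplasmic reticulum median was -0.02 to 0.06 without each array, 0.14 with quantile normalization, 0.21 within slide 1 and -0.13 within slide 2. The cause was not tested. With 4 arrays per group, smaller differences may have been missed, and dim probes such as that of Slc7a11 depend on the background correction and its offset.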
